A study of Mus musculus with 6 samples.

Results

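Pyroptosis and necroptosis are lytic forms of regulated cell death, and 10 genes that encode their core machinery were followed here in mouse liver. They were chosen by name, as the genes whose deposited symbol is Nlrp3, Pycard, Casp1, Casp4, Gsdmd, Il1b, Il18, Ripk1, Ripk3 or Mlkl, and all 10 were found among 34352 genes with symbols. Total RNA was extracted from the livers of wild-type C57BL/6 mice, labelled male and 6 to 8 weeks old when housed. The control mice received 0 mg and the exposed mice 20 mg of cadmium chloride (CdCl2, a hepatotoxic metal salt) per kg per day by gavage for 90 days. Each group has 3 libraries, numbered 1 to 3 by batch in the labels. They hold the input fraction of an immunoprecipitation of RNA that carries N6-methyladenosine (m6A). The labels describe this input as fragments left unbound by the antibody. The labels assign 6 mice to each group without mapping mice to libraries. The p-values therefore reflect differences among the libraries, which may be technical.

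In pyroptosis, a sensor such as NLRP3 assembles with the adaptor ASC, encoded by Pycard, into an inflammasome that activates caspase-1. Caspase-1 matures the cytokines interleukin-1 beta and interleukin-18, and caspase-1 or the lipopolysaccharide-sensing caspase encoded by Casp4 (caspase-11 in mouse) cleaves gasdermin D, whose fragment forms pores in the cell membrane. In necroptosis, the kinases RIPK1 and RIPK3 assemble below death receptors and RIPK3 phosphorylates MLKL, which then permeabilises the membrane. In liver, the inflammasome genes are best known from Kupffer cells and other myeloid cells. Transcript levels do not report cleavage or phosphorylation, the steps at which these proteins act.

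Depth ran from 42115960 to 68587128 recovered reads per library, reads being recovered from the deposited log2 values as whole numbers. The metallothionein Mt1, which cadmium is known to induce, lay at 7.39 to 41.3 FPKM in control and 378 to 729 FPKM in cadmium libraries, where FPKM is fragments per kilobase of gene, scaled to library total. Xist, which coats the inactive X chromosome of females, lay at 19.7 to 35.5 FPKM in all 6 libraries, against the label of male mice. These are bulk libraries, in which fewer cells of a type and less RNA per cell cannot be told apart. A change in RNA level and a change in the share bound by the m6A antibody cannot be told apart either.

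The effectors, the inflammatory caspases, the cytokines and the kinase Ripk3 stood higher in cadmium, as did the sensor Nlrp3 in FPKM. The adaptor Pycard and the kinase Ripk1 did not part the groups. Gsdmd, the pore former of pyroptosis, rose 1.50-fold in mean FPKM. Il18 rose 1.48-fold, and Mlkl, the effector of necroptosis, rose 1.89-fold. These 3 genes were called higher at an adjusted p under 0.05 in the FPKM comparison, and 0 members were called lower. That comparison, limma on log2(FPKM + 1), tested the 4 members with at least 1 FPKM in 3 libraries and called 7.86% of all 9908 genes higher and 1.82% lower. Mlkl reached that limit only in its cadmium libraries. With a limit of 1 on the mean FPKM over all libraries, 2 members were called, Gsdmd and Mlkl. With the batch number as a replicate block, 0 of the 4 were called. Casp1, Casp4 and Il1b had 1.99, 2.34 and 2.46 times the control FPKM, but at levels too low for that comparison.

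A second comparison, limma voom on the recovered reads, tested all 10 members among 18655 genes. It called 0 members, where 2.62% of all genes were called higher and 2.23% lower. At an unadjusted limma p under 0.05, in either direction, it held 4061 of the 18655 genes. Of the members it held 5, Casp1, Casp4, Gsdmd, Il1b and Mlkl, all higher. Their 95% confidence intervals of the log2 difference lie above 0, which restates the same criterion. Over the 10 members 9 log2 differences were positive and their median was 0.44, beside 0.02 over all genes. The libraries of the groups did not overlap for 8 of 10 members in FPKM, all higher in cadmium, where 26.8% of all genes did the same. In counts divided by the authors' size factors, called normalized counts here, they did not overlap for 7 of 10, where 14.6% of all genes did the same. On that scale the ratios of group means were smaller than in FPKM. They were 1.322 for Gsdmd, 1.297 for Il18, 1.672 for Mlkl, 1.755 for Casp1, 2.014 for Casp4 and 2.152 for Il1b. Over all tested genes 66.7% of log2 differences were positive in FPKM (median 0.09), and 52.1% in reads. With 3 libraries against 3, an exact permutation test of a single gene cannot go below p = 0.1.

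**Figure D1:**
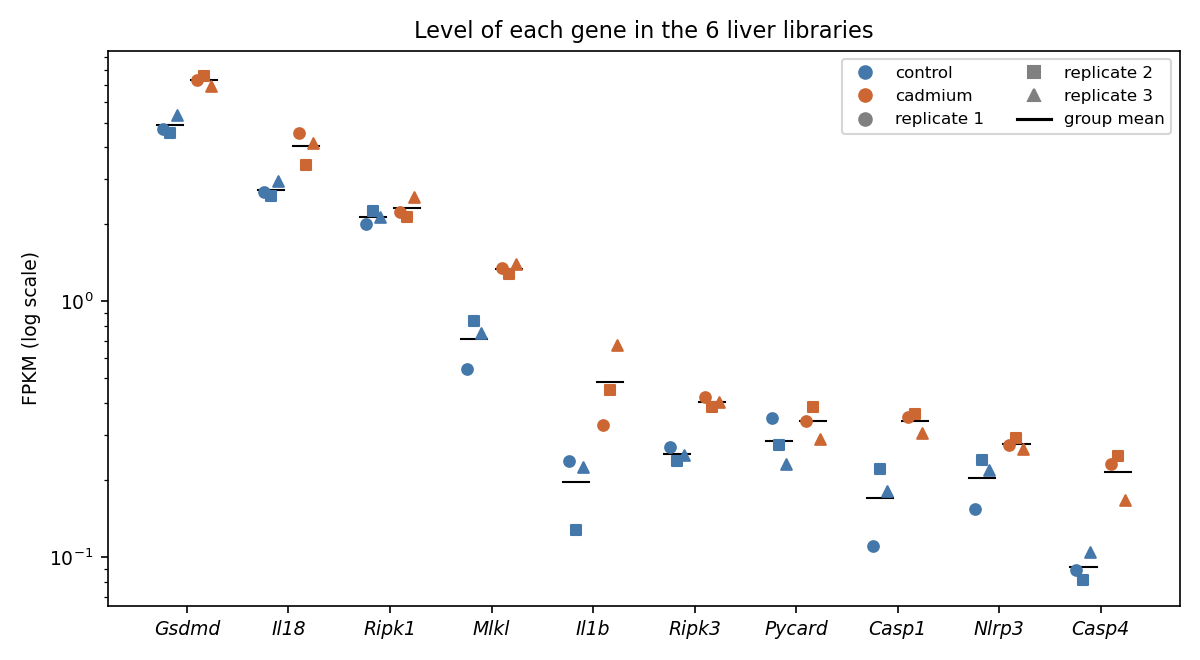
Level of the 10 genes in FPKM (log axis) in 3 control (blue) and 3 cadmium (orange) libraries, with marker shapes for the replicate number and a bar at each group mean. The groups overlap for Ripk1 and Pycard and not for the other 8 genes.

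Gsdmd was the most abundant of the 10 genes, with a mean of 6.09 FPKM over the 6 libraries, followed by Il18 at 3.39, Ripk1 at 2.22 and Mlkl at 1.03 FPKM. Each of these 4 lay above the next gene in that order in 6 of 6 libraries. Il1b (0.341), Ripk3 (0.329), Pycard (0.312), Casp1 (0.256) and Nlrp3 (0.241 FPKM) were close together. The order of these 5 was not the same in the groups. Casp1 lay below Nlrp3 in 3 of 3 control libraries and above it in 3 of 3 cadmium libraries. Pycard lay above Casp1 in 3 control libraries and 1 cadmium library, Ripk3 above Pycard in 1 and 3, and Il1b above Ripk3 in 0 and 2. Casp4 was lowest at 0.154 FPKM, under Nlrp3 in 6 of 6 libraries. By group mean Il1b ranked 8 of the 10 genes in control and 5 in cadmium, and Pycard 5 and 8.

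Nlrp3, the inflammasome sensor (ENSMUSG00000032691, GRCm38 chromosome 11, 59541568 to 59566956, plus strand), stood at 0.155, 0.239 and 0.219 FPKM in control replicates 1 to 3 and at 0.274, 0.293 and 0.264 FPKM in cadmium. Control replicate 1 was the lowest and the groups did not overlap in FPKM, but they overlapped in normalized counts. The log2 difference in reads was 0.29 (SE 0.26, 95% interval -0.30 to 0.87, limma adjusted p = 0.575).

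Pycard, the adaptor that links sensor to caspase (ENSMUSG00000030793, chromosome 7, 127989708 to 127993867, minus strand), stood at 0.350, 0.275 and 0.231 FPKM in control and at 0.341, 0.388 and 0.290 FPKM in cadmium. The highest control library lay above 2 of the 3 cadmium libraries. Its log2 difference in reads was 0.06 (interval -0.53 to 0.65, adjusted p = 0.929) and turned to -0.12 after quantile normalization, so no direction can be given. The predicted gene Gm45205 shares 485 exon bases with it on the opposite strand, and the strand setting of the counting is not given in the sources used here.

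Casp1, the protease of the inflammasome (ENSMUSG00000025888, chromosome 9, 5298517 to 5307265, plus strand), had 25, 43 and 31 reads in control and 59, 98 and 76 in cadmium, or 0.111, 0.221 and 0.181 FPKM against 0.354, 0.362 and 0.305. All 3 cadmium libraries lay above all controls. The log2 difference in reads was 0.85 (SE 0.31, interval 0.16 to 1.55, adjusted p = 0.147).

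Casp4, the caspase that binds intracellular lipopolysaccharide, lies next to Casp1 on the same strand (ENSMUSG00000033538, chromosome 9, 5308828 to 5336783). It had 24, 20 and 22 reads in control and 46, 80 and 51 in cadmium, or 0.0894, 0.0812 and 0.105 FPKM against 0.231, 0.248 and 0.168. The controls were close together, cadmium replicate 3 was lower than the other cadmium libraries, and the groups did not overlap. The log2 difference in reads was 0.98 (SE 0.34, interval 0.23 to 1.73, adjusted p = 0.124). The 66 control reads carry a counting error of 12.3% on their own, as do the 72 of Il1b at 11.8%, whereas the 2127 of Gsdmd carry 2.17%.

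The promoters of Casp4 and Nlrp3 are shown because inflammasome priming is known to run through NF-kB, and they were the members whose windows held a match to its motif. RefSeq windows from 250 bases before to 50 after each gene start (GRCm38.p6) were searched on both strands for GGGNNTTCC, and 9 of the 10 members had a window. Capitals mark matches on either strand. The first stretch is chr9:5308739-5308818 (plus strand), at positions -110 to -31 from a Casp4 start. The second is chr11:59541369-59541418 (plus strand), at positions -200 to -151 from an Nlrp3 start.
Casp4: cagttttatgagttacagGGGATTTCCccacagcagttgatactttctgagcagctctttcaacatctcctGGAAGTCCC
Nlrp3: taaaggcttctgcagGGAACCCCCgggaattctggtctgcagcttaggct
Casp4 thus held 2 matches, 1 on each strand. A window at another Nlrp3 start also held a match, at position -94. At least 1 match occurred in 5.82% of 32851 windows of this length. The interferon-stimulated response element core GAAANNGAA was found in windows of Ripk1 and Ripk3 and in 8.56% of all windows. The gamma-activated site TTCNNNGAA was found in a window of Ripk1 and in 8.30% of all. A match describes letters and not binding.

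Gsdmd, which encodes gasdermin D (ENSMUSG00000022575, chromosome 15, 75862327 to 75867408, plus strand), stood at 4.71, 4.54 and 5.37 FPKM in control (mean 4.87 ± 0.438, SD, n = 3) and at 7.37, 7.61 and 6.95 FPKM in cadmium (7.31 ± 0.332). The lowest cadmium library lay well above the highest control. The log2 difference was 0.50 on the log2(FPKM + 1) scale (SE 0.09, interval 0.29 to 0.71, limma adjusted p = 0.0204, and 0.0703 with the replicate block). In reads it was 0.41 (SE 0.12, interval 0.14 to 0.67, adjusted p = 0.0772). The call in FPKM was lost without control replicate 2 (adjusted p = 0.0503), cadmium replicate 1 (0.0681), cadmium replicate 2 (0.0533) or cadmium replicate 3 (0.0792), and on the deposited log2 values (0.0564) or with no filter (0.0716). The authors' deposited table gives Gsdmd a log2 fold change of 0.40 with an FDR of 0.00948.

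Il1b, the cytokine interleukin-1 beta (ENSMUSG00000027398, chromosome 2, 129364570 to 129371139, minus strand), had 33, 15 and 24 reads in control and 34, 75 and 104 in cadmium, or 0.237, 0.128 and 0.226 FPKM against 0.329, 0.451 and 0.673. It had the largest log2 difference in reads of the 10 members, and cadmium replicate 1 was closest to the controls. That difference was 1.13 (SE 0.41, interval 0.22 to 2.04, adjusted p = 0.143), with 0.20 in batch 1, 1.67 in batch 2 and 1.36 in batch 3.

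Il18, the cytokine that caspase-1 also matures (ENSMUSG00000039217, chromosome 9, 50554827 to 50581840, plus strand), stood at 2.67, 2.58 and 2.96 FPKM in control (2.74 ± 0.196, SD, n = 3) and at 4.54, 3.41 and 4.16 FPKM in cadmium (4.04 ± 0.574). Its groups did not overlap, and cadmium replicate 2 was closest to the controls. The log2 difference was 0.43 on the log2(FPKM + 1) scale (SE 0.11, adjusted p = 0.0470, and 0.0807 with the replicate block) and 0.36 in reads (interval -0.04 to 0.75, adjusted p = 0.276). Of the 6 comparisons that left out a library, the call stayed only without cadmium replicate 2 (adjusted p = 0.0361). It was lost without each of the other 5, at up to 0.166, and after quantile normalization (0.128), upper quartile scaling (0.0897) or on the deposited log2 values (0.225). A limit of 1 on the mean FPKM over all libraries gave 0.0503, a limit of 0.1 FPKM in 3 libraries 0.0712, and no filter 0.138. Bco2, a carotenoid-cleaving enzyme encoded on the opposite strand of the same locus, shares 0 exon bases with Il18 and stood at 3.47 to 4.65 FPKM in control and 6.29 to 7.33 in cadmium.

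Ripk1, the kinase below tumour necrosis factor receptor 1 (ENSMUSG00000021408, chromosome 13, 34002363 to 34037147, plus strand), stood at 2.00, 2.26 and 2.14 FPKM in control and at 2.24, 2.14 and 2.56 FPKM in cadmium. The groups overlapped in FPKM and in normalized counts. Its log2 difference was 0.08 in FPKM (interval -0.11 to 0.27, adjusted p = 0.579) and -0.06 in reads (interval -0.33 to 0.20, adjusted p = 0.807). The sign thus turned with the scaling. The upper bound of 0.27 lies below the log2 difference of the other 3 members tested in FPKM. The intervals of Il18 (0.18 to 0.67) and Mlkl (0.26 to 0.66) nevertheless overlap that of Ripk1, and a difference between genes was not tested. Ripk1 had 940 to 1705 reads per library, so its interval is among the narrowest of the 10. The processed pseudogene Gm17084 shares 511 exon bases with Ripk1 on the same strand, and Serpinb6a shares 241 on the opposite strand. Serpinb6a stood at 0.531 to 0.832 FPKM in control and 0.914 to 1.025 in cadmium. How reads in these shared bases were counted is not given in the sources used here.

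Ripk3, the kinase that phosphorylates MLKL (ENSMUSG00000022221, chromosome 14, 55784995 to 55788865, minus strand), had 45, 35 and 33 reads in control and 53, 78 and 76 in cadmium. In FPKM it stood at 0.270, 0.237 and 0.250 against 0.424, 0.388 and 0.404, even within each group and without overlap. The log2 difference in reads was 0.46 (SE 0.27, interval -0.13 to 1.06, adjusted p = 0.351).

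Mlkl, the membrane effector of necroptosis (ENSMUSG00000012519, chromosome 8, 111311797 to 111338177, minus strand), stood at 0.543, 0.839 and 0.753 FPKM in control (0.711 ± 0.152, SD, n = 3) and at 1.35, 1.28 and 1.40 FPKM in cadmium (1.35 ± 0.0609). The cadmium libraries were closely alike and all above the controls, of which replicate 1 was lowest. The log2 difference was 0.46 on the log2(FPKM + 1) scale (SE 0.09, interval 0.26 to 0.66, adjusted p = 0.0234, and 0.0705 with the replicate block) and 0.76 in reads (SE 0.21, interval 0.31 to 1.22, adjusted p = 0.0621). Mlkl passed the limit of 1 FPKM only through its 3 cadmium libraries. Its adjusted p was 0.0264 with a limit on the mean over all libraries, which does not favour a group and left 2 members called, Gsdmd and Mlkl. With no filter it was 0.0888. The call was lost without control replicate 3 or any 1 cadmium library, with adjusted p from 0.0523 to 0.104, and after quantile normalization (0.0581) or on the deposited log2 values (0.0555). The authors' deposited table gives Mlkl an FDR of 0.00772. By that table's statistics 2 members, Gsdmd and Mlkl, passed an FDR of 0.05, where 3.72% of its genes passed it with higher values in cadmium.

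**Figure D2:**
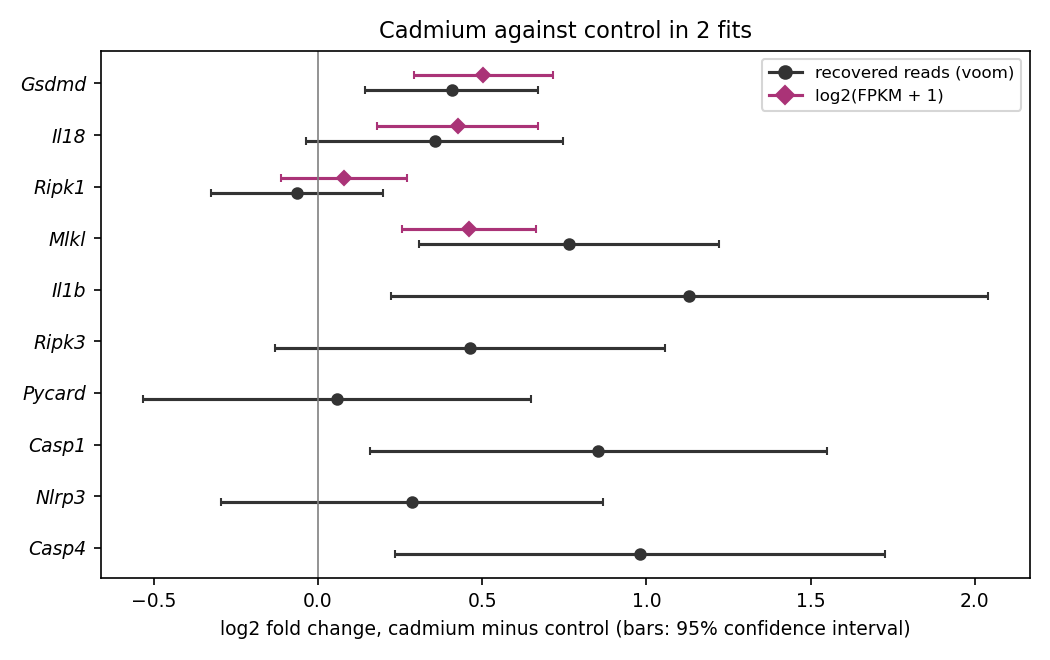
Log2 difference of each gene between cadmium and control with its 95% confidence interval, in the recovered-read comparison (dark circles, all 10 genes) and on the log2(FPKM + 1) scale (purple diamonds, 4 genes). The read intervals of Casp1, Casp4, Gsdmd, Il1b and Mlkl lie above 0, and those of Il18, Nlrp3, Pycard, Ripk1 and Ripk3 span it.

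Within batches, the deposited log2 value was higher in cadmium in 3 of 3 batches for 8 members. For 7 of them, all but Nlrp3, the groups did not overlap in normalized counts. Every pairing of their libraries must then give a positive difference, so this is no separate result. The share of all genes higher in 3 of 3 batches was not counted. Mlkl differed by 1.03, 0.46 and 0.76 in batches 1 to 3, Casp1 by 1.37, 0.58 and 0.56, and Casp4 by 1.07, 1.36 and 0.48. Ripk3 was the most even, at 0.39, 0.55 and 0.47. The exceptions were Pycard, lower in batch 1 at -0.32, and Ripk1, lower in batches 1 and 2 at -0.12 and -0.21.

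**Figure D3:**
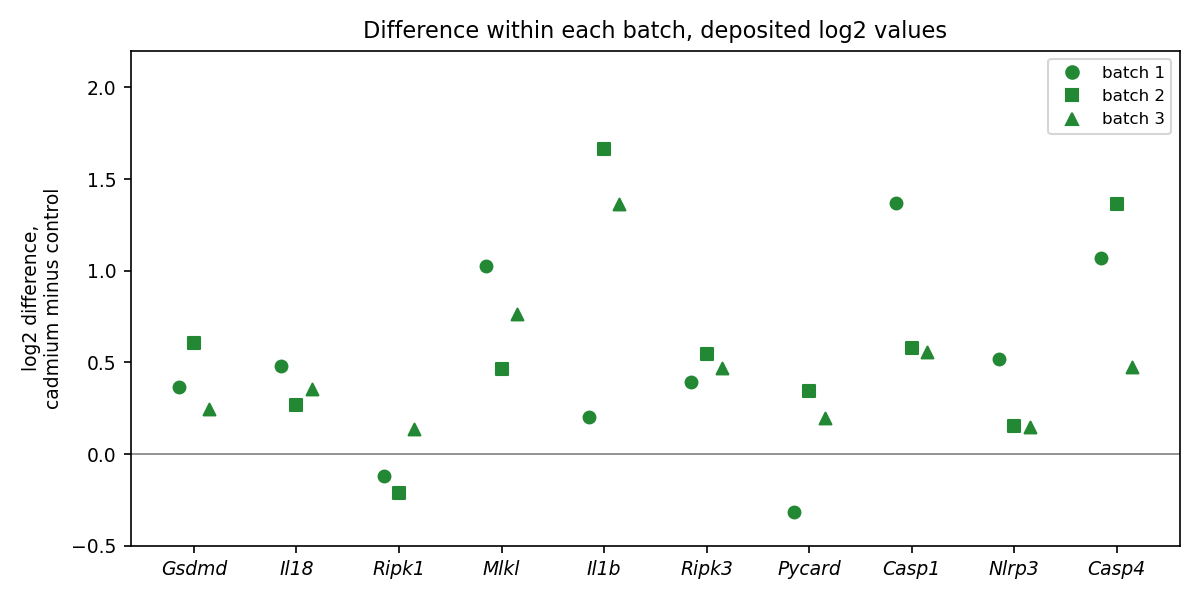
Difference of the deposited log2 value between the cadmium and the control library of each batch, for the 10 genes. All 3 batches lie above 0 except for Ripk1 and Pycard.

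Ratios between members within a library do not depend on how libraries are scaled, and 6 were taken after the values had been seen. Mlkl per Ripk1 was 0.272, 0.371 and 0.352 in control and 0.604, 0.601 and 0.549 in cadmium, as a ratio of FPKM. Ripk3 per Ripk1 was 0.135, 0.105 and 0.117 against 0.189, 0.182 and 0.158, and Gsdmd per Ripk1 was 2.36, 2.01 and 2.51 against 3.29, 3.56 and 2.72. Casp1 per Pycard was 0.318, 0.804 and 0.784 against 1.04, 0.933 and 1.05. These 4 ratios did not overlap between groups, each at the smallest exact permutation p of 0.1 (two-sided, 0.15 adjusted over the 6 by Benjamini-Hochberg). Their numerators were members whose groups did not overlap in FPKM, and their denominators were the 2 members whose groups did. That choice largely set the separation, so it is no separate result and the p-values are descriptive. The share of other gene pairs whose ratios part the groups was not counted. Nlrp3 per Pycard (exact permutation p = 0.9) and Il1b per Il18 (p = 0.3) overlapped. A ratio does not say which of its genes moved.

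The genes most like 3 of the members were listed by Pearson correlation of log2(FPKM + 1) over the 6 libraries, which share the difference between groups. For Gsdmd they were Agps, an enzyme of ether lipid synthesis, Fcgr4, an activating Fc receptor of myeloid cells, and Hps1, a gene of lysosome-related organelles (r = 0.995, 0.993 and 0.992). For Mlkl they were Nod1, a sensor of bacterial peptidoglycan, Hgf, the hepatocyte growth factor, and Degs1, a ceramide desaturase (r = 1.00, 0.996 and 0.996). For Nlrp3 they were Chd8, Esam and Ppp2r5a (r = 0.996, 0.992 and 0.991). With 6 points such values are common: 228 of 8929 genes passed 0.95 for Gsdmd, 356 for Mlkl and 97 of 8930 for Nlrp3.

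Among 25 other inflammasome and pyroptosis genes tested in reads, 3 were called higher and 0 lower, with a median log2 difference of 0.22. With the replicate block 2 were called. Of the 3, Nlrp1a, passed the limit of 10 reads in 3 libraries only through cadmium, and with a mean of at least 10 reads 2 of 24 were called. Gbp2, an interferon-induced GTPase that acts on bacterial membranes and supports caspase-11 activation, rose from 0.786, 1.07 and 0.760 FPKM to 1.88, 2.33 and 2.15 (log2 difference in reads 1.12, adjusted p = 0.0130, and 0.0607 without cadmium replicate 3). Gm12250, which encodes the related GTPase IRGB10, rose from 0.493, 0.509 and 0.224 FPKM to 0.959, 1.58 and 1.65 (1.61, adjusted p = 0.0418, and 0.0843 with the block). That call stayed in 1 of the 6 comparisons that left out a library, the one without cadmium replicate 1, with adjusted p up to 0.145. Gbp5, which promotes NLRP3 assembly, had a log2 difference of 0.98 (adjusted p = 0.0577).

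Nlrp1a, another inflammasome sensor, had 0 reads in all 3 control libraries and 13, 17 and 24 reads in cadmium. Its counts are a description, since it entered the comparison only through the cadmium libraries. Against a floor of 3 reads over the control group it was at least 13.6-fold higher. Its adjacent paralogs were added after values had been seen: Nlrp1b had 45, 39 and 22 reads against 41, 46 and 58 (adjusted p = 0.933), and the pseudogene Nlrp1c-ps 42, 46 and 17 against 28, 66 and 77. Near-identical copies can share reads, so the split between these 3 genes is uncertain.

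Of the interleukin-1 and interleukin-18 system, 15 genes were tested in reads and 0 were called, with a median log2 difference of 0.26, while 2 of 9 were called higher in FPKM and 0 with the block. Il18bp, the secreted decoy that neutralises interleukin-18, rose from 0.912, 1.59 and 1.20 FPKM to 2.42, 2.11 and 2.29 (log2 difference in FPKM 0.56, adjusted p = 0.0290, and 0.0858 with the block). Cytokine and decoy were thus both called higher in FPKM and both missed the threshold in reads (Il18bp adjusted p = 0.0506). The Il18bp call was lost without control replicate 3 or any 1 cadmium library, with adjusted p up to 0.108. Irak4, the kinase of the receptor complex, was called at 0.28 (adjusted p = 0.0453). It missed the threshold with the block (0.112) and without any 1 of the 6 libraries. Irak3, an inhibitor of that complex, and Il1rn, the receptor antagonist, had log2 differences in reads of 0.93 and 0.70 (adjusted p = 0.133 and 0.182).

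Of 39 other genes of necroptosis and the tumour necrosis factor receptor complex, 1 was called higher and 2 lower in reads, and 0 with the block, with a median log2 difference of -0.00. In FPKM 5 of 32 were called higher and 0 lower, and 0 with the block, where 7.86% of all genes were called higher without it. Of the 5, Tnfsf10 met the limit of 1 FPKM in 3 libraries only through its cadmium libraries. With a limit of 1 on the mean FPKM over all libraries, 5 of 32 were called higher as well. With total reads as library size the split in reads was 7 higher and 0 lower. Birc3, the ubiquitin ligase cIAP2 that modifies RIPK1, rose from 1.60, 1.68 and 1.93 FPKM to 3.38, 2.55 and 2.96 (log2 difference in reads 0.58, adjusted p = 0.0405, and 0.0628 with the block). In reads it passed without cadmium replicate 2 and missed the threshold without any other library, at up to 0.156. Ticam1, the adaptor TRIF through which Toll-like receptors reach RIPK3, was at 2.54, 2.55 and 2.70 FPKM against 4.09, 3.78 and 4.24 (adjusted p = 0.0144 in FPKM, 0.0533 with the block and 0.0609 in reads). In FPKM it missed the threshold when cadmium replicate 1 or 3 was left out, at up to 0.0806.

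Hsp90aa1, a chaperone of RIPK1, RIPK3 and MLKL, fell in reads by 0.90 on the log2 scale, from 14.0, 23.6 and 19.8 FPKM to 12.0, 9.33 and 13.2 (adjusted p = 0.0263, 0.0533 with the block and 0.0846 in FPKM). Its call in reads stayed without control replicate 1 and was lost without any other library, with adjusted p up to 0.0838. Chuk, the kinase IKK alpha, fell by 0.44 on that scale (adjusted p = 0.0461, and 0.139 in FPKM). It missed the threshold with the block (0.0851) and without any 1 of the 6 libraries.

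Marker sums of some liver cell types were higher in cadmium, and those of others overlapped between groups. The summed FPKM of 5 markers of all leukocytes was 3.52 to 5.85 in control and 8.71 to 10.8 in cadmium, and that of 7 monocyte markers was 1.29 to 2.15 against 4.47 to 6.13. In reads 3 of 5 leukocyte and 4 of 6 monocyte markers were called higher, or 2 and 2 with the block, and 0 and 1 without cadmium replicate 3. Itgax, the CD11c integrin chain, had a log2 difference of 2.24 (adjusted p = 0.00395) and Ccr2, the monocyte chemokine receptor, 1.70 (adjusted p = 0.0212). Of the same list Ly6c2 and Itgam were not called (adjusted p = 0.580 and 0.340), and Chil3 was at 0 in all controls and in cadmium replicate 1.

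The 13 Kupffer cell and macrophage markers summed to 53.0 to 90.4 FPKM in control and 108 to 124 in cadmium, and they split. Called higher in reads were Adgre1, Cd68, Lyz2, C1qb and C1qc. Called lower were Cd163 (log2 difference -4.76, limma adjusted p = 0.000238) and Timd4 (-2.77, adjusted p = 0.00642). Clec4f (0.09, adjusted p = 0.782), Cd5l (0.77, 0.195), Vsig4 (-0.48, 0.418) and Marco (-0.26, 0.717) were not called. Neither were Csf1r (0.55, 0.118) and C1qa (0.59, 0.166). With the block 2 were called higher and 2 lower, and without cadmium replicate 3 the numbers were 0 and 2. The neutrophil sum was 0.0799 to 0.822 against 1.35 to 1.81 FPKM. Most of the cadmium sums came from S100a9, at 1.10, 1.10 and 1.01 FPKM, as did 0.579 FPKM of the sum in control replicate 2. Camp was at 0 in all libraries but cadmium replicates 2 and 3, and Ngp and Elane were at 0 in all but control replicate 2. Of that list S100a9 was the 1 gene tested in reads, called higher (adjusted p = 0.0486) but not with the block (0.184) or without any library but control replicate 2. S100a9 had 0, 19 and 0 reads in control and 30, 49 and 43 in cadmium. Its cadmium libraries alone met the read limit of that comparison and its control libraries alone did not, so the limit favoured a gene higher in cadmium. Stellate and fibroblast markers summed to 12.6 to 20.0 against 30.0 to 33.6 FPKM, with 4 of 7 called higher, 2 with the block and 2 without control replicate 2, cadmium replicate 1 or cadmium replicate 3.

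Sums of T and NK cell markers (0.698 to 1.30 against 1.08 to 1.38 FPKM), B and plasma cell markers (1.70 to 4.13 against 4.07 to 6.86), sinusoidal endothelial markers (23.6 to 35.4 against 32.1 to 43.3) and cholangiocyte markers (6.22 to 9.96 against 7.55 to 25.6) overlapped, and 0 genes of these lists were called in reads. The 7 hepatocyte markers summed to 15000 to 22800 against 15300 to 23800 FPKM, with 0 called. The part of these cell types in the members' differences was not tested.

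**Figure D4:**
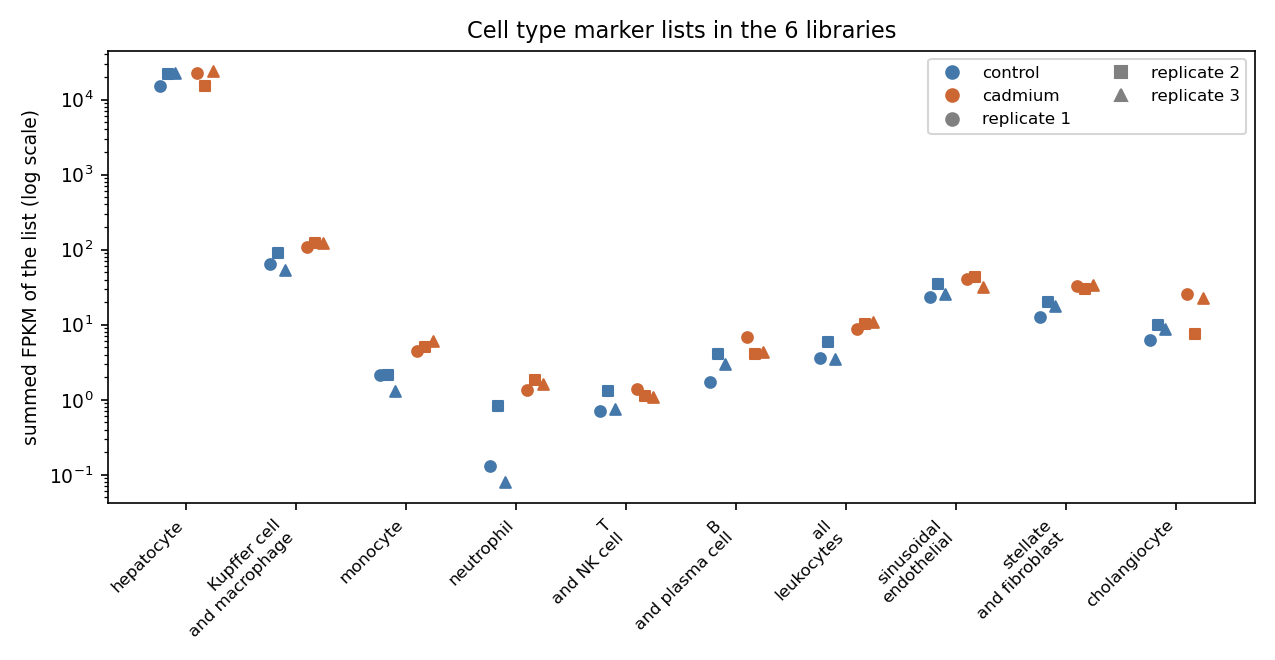
Summed FPKM (log axis) of fixed marker lists of liver cell types in the 3 control (blue) and 3 cadmium (orange) libraries, with marker shapes for the replicate number. The monocyte, leukocyte, macrophage, neutrophil and stellate sums do not overlap between groups, and the hepatocyte sums do. In cadmium the neutrophil sum is mostly S100a9.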

How the data were processed

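The authors deposited FPKM for 55335 genes by identifier, and a second table with log2 values for 34352 genes with symbols. That table also holds group means and, from the authors' comparison, a log2 fold change, a p-value and an FDR. The submitters' processing notes list STAR 2.7.1a, cutadapt 1.1.8, DESeq2, MACS2 2.1.1 and SAMtools 1.3.1 and the build mm10, without saying what each did. Which program counted reads, with which annotation, and which test gave the p-values is not given in the sources used here. Undoing log2 and subtracting 1 gave whole multiples of 1 step per library for 100% of values within 0.05 of a read, which returned read counts and size factors.

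The FPKM comparison used limma 3.58.1 (R 4.3.3) on log2(FPKM + 1), with robust moderation and a trended variance, over genes of at least 1 FPKM in 3 libraries. That scale understates the change of low genes. The recovered-read comparison used limma voom with library sizes proportional to the size factors, over genes of at least 10 reads in 3 libraries. It was added because 6 members fall below the FPKM limit. Both were two-sided with Benjamini-Hochberg adjustment over all genes tested, a threshold of 0.05 and no block, and the scripts were tested on simulated data. The FPKM scale depends on library totals, in which abundant noncoding RNA has a share.

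The labels give the replicate number as a batch, so same-numbered libraries were also fitted with a replicate block. Deviations from group means correlated at -0.21, -0.23 and -0.02 between same-numbered libraries.

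Named were all 10 members, up to 4 genes of each fixed list with the smallest p in reads, and the 3 genes most like Gsdmd, Mlkl and Nlrp3, passing over predicted genes. Members and lists were chosen with earlier results of these data known. Gene positions are from GENCODE vM21 (GRCm38), matched by identifier. Alternatives were other pseudocounts, filters and scalings, the block, and leaving out each library.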

Additional observations from a re-analysis of the deposited data

How the results depend on the processing

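The number of members called in FPKM, 3, was 0 with no filter, 0 on the deposited log2 values, 0 with the replicate block, 1 after quantile normalization, and 0 to 2 when 1 library was left out. It was 1 without control replicate 1 and cadmium replicate 2 together, chosen after seeing the data, which in reads called 1236 genes and 0 members. All genes called in FPKM went from 959 to 37 with no filter, to 248 with the replicate block, and to 101 (without cadmium replicate 3) to 781 when a library was left out. In reads, 904 genes and 0 members were called. With total reads as library size these were 1647 and 2 (Gsdmd and Mlkl), quantile normalization called 1 member (Gsdmd), and the replicate block 635 genes and 0 members. Leaving out a library gave 219 (without cadmium replicate 3) to 874 genes and 0 members. Of called genes, 81.2% were higher in FPKM, against 53.9% after quantile normalization, 68.6% after upper quartile scaling and 43.6% on the deposited log2 values. In reads 488 of 904 were higher, against 1428 of 1647 (86.7%) with total reads, which moved the median log2 difference of all genes from 0.02 to 0.21. Ripk1 turned to -0.018 after quantile normalization and -0.065 on the deposited log2 values in FPKM, and to 0.13 with total reads. Pycard turned to -0.12 after quantile normalization, and ran from -0.087 (without control replicate 3; -0.065 without cadmium replicate 2) to 0.25 when a library was left out. The cause was not tested. The other 8 members kept a positive difference under every alternative run. The alternatives reuse the same libraries, and for 7 of these members the groups did not overlap in normalized counts. Leaving out a library could then hardly turn the sign, so this is no separate result. The share of all genes that kept their sign was not counted. Depth limits Casp4, Il1b, Casp1 and Ripk3 most, with 66 to 113 control reads in all.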

Other observations

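Other genes of the same lists were chosen after their values were seen. Fas, a death receptor, stood at 1.61, 1.74 and 1.80 FPKM in control and 3.30, 2.49 and 3.18 in cadmium (limma adjusted p = 0.0208 in FPKM, 0.0653 with the replicate block and 0.0670 in reads). Tnip1, a ubiquitin-binding restraint on receptor signalling, stood at 1.09, 1.21 and 1.30 against 1.90, 1.97 and 1.95 FPKM (adjusted p = 0.0182 in FPKM, 0.0631 with the block). Both calls were lost without cadmium replicate 1 or 3, and that of Fas also without control replicate 2 or 3. Casp8, the protease that cleaves RIPK1 and RIPK3 and so restrains necroptosis, stood at 4.10, 3.40 and 3.87 against 3.14, 3.96 and 3.67 FPKM, and its groups overlapped (adjusted p = 0.740). Cflar, its regulator, lay at 4.87 to 5.37 against 5.19 to 5.44 FPKM (adjusted p = 0.813).

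The sensors Zbp1 and Aim2 did not overlap between groups in FPKM but were not called in reads (log2 difference 0.69 and 0.58, adjusted p = 0.155 and 0.328). Nek7, a partner of NLRP3, overlapped at 3.75 to 4.03 against 3.60 to 4.37 FPKM. Tnf, the main ligand of the RIPK1 pathway, had 2, 8 and 0 reads in control and 0, 33 and 24 in cadmium. It was too low to be tested, and its batch 1 libraries held 2 and 0 reads.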
